A study of Mus musculus with 2 samples.

Results

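The miR-23/27/24 microRNAs come from a pair of paralogous clusters, Mir23a/27a/24-2 on mouse chromosome 8 and Mir23b/27b/24-1 on chromosome 13. The 6 loci were chosen by their gene symbols, and 5 of them were found among the 1973 microRNA rows of the count tables. Mir24-1 is not analysed here as a locus of its own, because its gene ID has no row in the tables used. The counts came from microRNA sequencing of RNA under 30 nt from the midbrain of B6NCrl mouse embryos at 13.5 days, with male and female embryos pooled. There was 1 group of 2 biological replicates, each sequenced as 1 library, and the labels name no treatment or genetic change. The labels give both replicates one donor record and do not say whether separate litters were used, so the spread between the libraries may be partly technical.

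Each of these clusters is transcribed as 1 long primary transcript, from which the nuclear enzyme Drosha cuts the hairpins and the cytoplasmic enzyme Dicer cuts the mature strands. A mature strand guides Argonaute to messenger RNAs mainly through its seed, the bases near its 5′ end. The clusters are known for roles in blood vessel growth, where miR-23 and miR-27 act in endothelial cells, and miR-27 is also known from fat cell differentiation and miR-24 from the control of cell division. In the brain, members of both clusters are known from glia as well as from vessels.

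The mature strands are shown first because their likeness decides which reads can be given to which cluster. Sequences are from RefSeq on GRCm38.p6, written 5′ to 3′, with the seed (bases 2 to 8) in capitals. The miR-23 strand of the chromosome 8 cluster, the miR-27 strands of both clusters and the miR-24 strand made by both were:
mmu-miR-23a-3p: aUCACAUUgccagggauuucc
mmu-miR-27a-3p: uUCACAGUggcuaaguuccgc
mmu-miR-27b-3p: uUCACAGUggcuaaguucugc
mmu-miR-24-3p: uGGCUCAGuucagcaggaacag
Counted from 1 at the 5′ end, miR-27a-3p and miR-27b-3p were identical over their first 18 bases and differed by C19U alone, the first letter being the base of miR-27a-3p. They therefore share the seed UCACAGU, while miR-23a-3p has UCACAUU and miR-24-3p has GGCUCAG. The sequence of miR-24-3p was present whole in 2 hairpins, Mir24-1 and Mir24-2, so a read of it has no single place of origin. The other arms of the miR-24 hairpins did differ, and they were:
mmu-miR-24-2-5p: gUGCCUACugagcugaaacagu
mmu-miR-24-1-5p: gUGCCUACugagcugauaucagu
These strands were identical over 16 bases, with A17U as the first difference, the first letter being the base of miR-24-2-5p.

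The hairpins show the same likeness over longer stretches. Here the capitals mark the longest run shared exactly with the paralog in the other cluster:
Mir23a: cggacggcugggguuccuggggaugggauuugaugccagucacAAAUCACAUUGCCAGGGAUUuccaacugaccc
Mir23b: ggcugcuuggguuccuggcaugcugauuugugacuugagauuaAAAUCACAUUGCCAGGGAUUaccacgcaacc
Mir27a: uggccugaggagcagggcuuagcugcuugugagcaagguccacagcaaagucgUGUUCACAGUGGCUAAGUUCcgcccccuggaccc
Mir27b: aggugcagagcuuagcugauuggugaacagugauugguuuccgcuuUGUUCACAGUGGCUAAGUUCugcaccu
Mir24-2: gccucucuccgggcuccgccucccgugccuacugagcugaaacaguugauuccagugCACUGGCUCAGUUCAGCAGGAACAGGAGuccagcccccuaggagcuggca
Mir24-1: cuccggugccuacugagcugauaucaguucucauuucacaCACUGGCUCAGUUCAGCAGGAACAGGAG
The shared run was 20 bases for the miR-23 hairpins, 20 for the miR-27 hairpins and 28 for the miR-24 hairpins. It held the first 18 of the 21 bases of miR-23a-3p, the first 18 of the 21 bases of both miR-27 strands, and all 22 bases of miR-24-3p. With any hairpin of RefSeq outside the clusters, the longest run shared was 13 bases. Over these 21 bases, a read of the miR-23 or miR-27 3p arm is thus placed in 1 cluster by 1 base, the first after the run. For miR-23 this is read from the hairpins, since no mature entry for miR-23b-3p was available. A read of miR-24-3p cannot be placed in either cluster by its own bases. Reads that map to several places were counted at no locus. Values of all members are uncertain to that extent, and those of miR-24 most.

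The clusters are compact and differ in their surroundings. On mm10 in the GENCODE M21 annotation, the chromosome 8 cluster lies on the plus strand at chr8:84208518-84208921 and spans 404 bp, with 79 bp between Mir23a and Mir27a and 56 bp between Mir27a and Mir24-2. None of its hairpins lies within a longer host gene. The last 2 bases of the Mir24-2 hairpin overlap the start of the long noncoding gene Gm26532. The chromosome 13 cluster lies on the plus strand at chr13:63300484-63301275 and spans 792 bp, with gaps of 154 and 423 bp. It lies within the protein-coding gene 2010111I01Rik on the same strand, where Mir23b is intronic and Mir27b and Mir24-1 overlap an annotated exon, and within introns of Fancc on the opposite strand. M21 also annotates a microRNA on the opposite strand of each miR-24 hairpin, Mir3074-2 over Mir24-2 and Mir3074-1 over Mir24-1. The IDs of Mir23b and Mir27b in the tables have an earlier version than in M21, so the extent used for counting may differ slightly.

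Replicate 1 held 5093743 reads counted on the strand of a gene and replicate 2 held 2935841. Levels are given as CPM, the counts scaled to this library total, and a count of 0 allows up to 0.589 CPM in replicate 1 and 1.02 CPM in replicate 2 (3 counts). Intervals and limits cover counting error only. Multimapping reads numbered 3827354 and 2590773, which is 67.4 and 70.4 times the summed counts of the 5 members, and how many of them were miR-24-3p is not in the tables. Of the neural microRNAs used to check the tissue label, 10 of 11 have a row, and the median of their means was 371 CPM. The highest, Mir135b, Mir92b and Mir137, stood between 6397 and 11427 CPM in the 2 libraries. Mir9-3 had 401 and 353 CPM, and Mir9-2 only 1.77 and 2.38 CPM. Mir9-2 and Mir9-3 are numbered copies, as Mir24-1 and Mir24-2 are, so reads of a strand they share were counted at neither. The neuronal Mir124a loci, whose mature strand is shared between copies as miR-24-3p is, had means of only 1.64 to 9.31 CPM. The 6 loci of the Hox clusters, which mark hindbrain and spinal cord, summed to 637 and 723 CPM. Most of this was Mir10a, at 382 and 469 CPM, and Mir10b, at 215 and 220 CPM, while Mir196a-1 had 1 and 0 counts.

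The chromosome 13 cluster was the more abundant in both libraries. Its 2 loci with a row, Mir23b and Mir27b, held 40086 counts in replicate 1 and 23983 in replicate 2, or 7870 and 8169 CPM. The 3 loci of the chromosome 8 cluster held 16680 and 12840 counts, or 3275 and 4374 CPM. The chromosome 8 cluster therefore took 29.4% of the counts of all members in replicate 1 (29.0 to 29.8, the 95% exact Clopper-Pearson limits) and 34.9% in replicate 2 (34.4 to 35.4), a mean of 32.1% ± 3.88 (SD, n = 2). The chromosome 13 cluster exceeded it 2.40-fold and 1.87-fold. An exact permutation test over 2 libraries cannot go below p = 0.5, so the order of the clusters is given without a test. All 5 loci together made up 1.11% and 1.25% of the counts in the libraries.

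Mir23b, whose mature product belongs to the same family as miR-23a, was the highest member, with 36975 counts in replicate 1 and 22040 in replicate 2. Its level was 7259 and 7507 CPM, a mean of 7383 ± 176 (SD, n = 2), and it ranked 28 of the 1973 loci. Mir23a had 16229 and 12561 counts, or 3186 and 4278 CPM (mean 3732 ± 772), and ranked 47. The lower value of Mir23b lay above the higher value of Mir23a. Within the pair, Mir23a held 30.5% of counts in replicate 1 (30.1 to 30.9) and 36.3% in replicate 2 (35.8 to 36.8), and these counting intervals did not overlap.

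The miR-27 pair was far more uneven. Mir27b had 3111 and 1943 counts, or 611 and 662 CPM (mean 636 ± 36.1, SD, n = 2), and ranked 109. Mir27a had 234 and 123 counts, or 45.9 and 41.9 CPM (mean 43.9 ± 2.86), and ranked 246. Mir27a held 7.00% of the counts of the pair in replicate 1 (6.15 to 7.91) and 5.95% in replicate 2 (4.97 to 7.06), and here the intervals overlapped. Mir27b thus exceeded its paralog 13.3-fold and 15.8-fold, against 2.28-fold and 1.75-fold for Mir23b over Mir23a. The excess of the chromosome 13 locus was larger for miR-27 than for miR-23 in both libraries, with counting intervals of 11.6 to 15.2 and 13.2 to 19.1 for miR-27 and of 2.24 to 2.32 and 1.72 to 1.79 for miR-23.

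For miR-24 the tables allow less. Mir24-2 had 217 and 156 counts, or 42.6 and 53.1 CPM (mean 47.9 ± 7.45, SD, n = 2), and ranked 239. Its hairpin differs from Mir24-1 in the 5p arm and in the loop and flanks, and which arm the counted reads came from is not recorded. The row whose ID M21 gives to Mir3074-1, the microRNA annotated opposite Mir24-1, had 1997 and 1060 counts on its own strand and 76 and 30 on the other. The strand this row had in annotation M4, on which the tables were made, is not stated in the files or labels, and its ID version differs from that of M21. If its same-strand counts were those of Mir24-1, Mir24-2 would hold 9.80% and 12.8% of the counts of the pair. If the opposite-strand counts were, it would hold 74.1% and 83.9%. These readings were chosen after the values were seen, and no direction is drawn for the miR-24 pair. At the members with a row, opposite-strand reads were 2 of 93591.

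**Figure D1:**
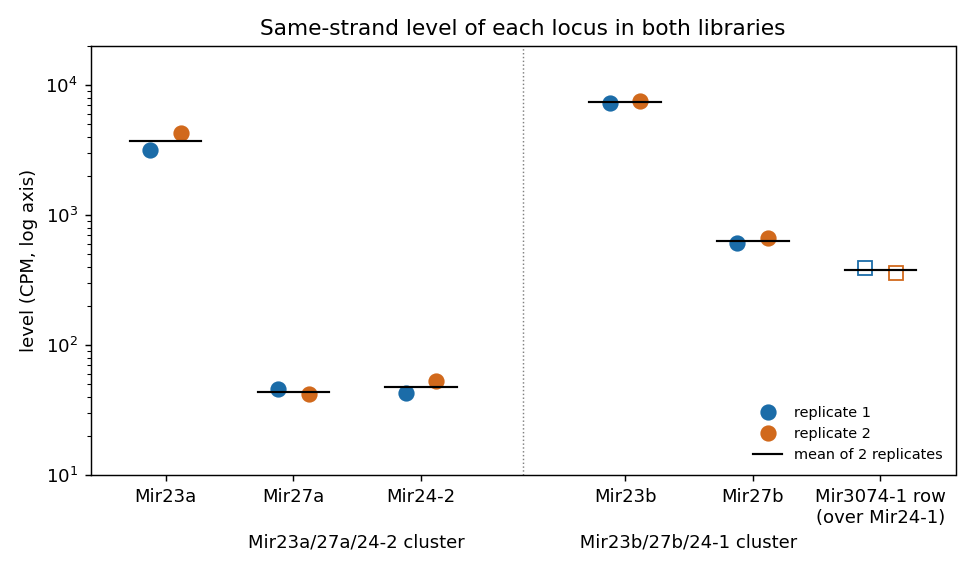
Level of each locus in CPM of same-strand counts on a log axis, with replicate 1 in blue, replicate 2 in orange and a line at the mean of the 2 replicates. Mir23b and Mir23a stand between 3186 and 7507 CPM, Mir27b near 636, and Mir27a and Mir24-2 between 41.9 and 53.1. Open squares are the row M21 names Mir3074-1, which lies over Mir24-1.

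Within each cluster the miR-23 locus held nearly all counts. Mir23a made up 97.3% and 97.8% of the counts of the chromosome 8 cluster, and Mir23b 92.2% and 91.9% of those counted for the chromosome 13 cluster. Mir23a exceeded Mir27a 69.4-fold in replicate 1 (61.0 to 79.2) and 102-fold in replicate 2 (85.5 to 123), with intervals that did not overlap. Mir23b exceeded Mir27b only 11.9-fold (11.5 to 12.3) and 11.3-fold (10.8 to 11.9). Mir23a exceeded Mir24-2 74.8-fold and 80.5-fold. The order of Mir24-2 and Mir27a was not resolved, since Mir27a was higher in replicate 1 (45.9 against 42.6 CPM) and Mir24-2 in replicate 2 (53.1 against 41.9 CPM). Although the loci of a cluster share a transcript, such ratios compare different sequences, and the efficiency with which each is cut, ligated and uniquely mapped was not measured. Counts were not divided by hairpin length, since a read covers a mature strand and not the 68 to 107 nt hairpin.

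In the order of levels the members had close neighbours. Mir23a lay between Mir125a, a lin-4 family microRNA (3755 ± 564 CPM), and Mir324 (3685 ± 576 CPM), all closer than their SDs. Mir23b lay between Mir151 (7414 ± 281 CPM) and Mir181a-1 (6842 ± 827 CPM), again not resolved, whereas Mir382, at 6584 ± 664 CPM, lay lower by more than the larger SD. Mir27b stood between Mir187 (672 ± 43.8 CPM) and Mir302d (631 ± 4.04 CPM), and Mir27a between Mir218-2 (43.9 ± 4.36 CPM) and Mir129-1 (43.0 ± 5.23 CPM). Mir24-2 lay between Mir6236 (48.2 ± 11.8 CPM) and Mir146 (47.6 ± 11.2 CPM). With 2 libraries of 1 group, nearness in level is the only likeness of pattern that can be given.

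Seeds tie the members to few other microRNAs. No mature strand in RefSeq outside the clusters has the seed of miR-23a-3p or of miR-27-3p. The seed of miR-24-3p recurs in miR-6413, miR-6410, miR-6369 and miR-5124b, whose loci had 0 counts in both libraries. The neuronal microRNA miR-128-3p carries the miR-27 seed shifted by 1 base:
mmu-miR-128-3p: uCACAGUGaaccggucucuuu
The run UCACAGUG is bases 2 to 9 of miR-27a-3p and bases 1 to 8 of miR-128-3p. The loci of miR-128-3p stood at 529 and 534 CPM for Mir128-1 and at 341 and 387 CPM for Mir128-2. Each locus alone was below Mir27b and above Mir27a in each library. Their sum, at 871 and 921 CPM, was above Mir27b in each library. The strand miR-128-3p is itself present whole in 2 hairpins, so these values have the same limit as those of miR-24.

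The libraries were compared locus by locus with a two-sided exact conditional binomial test on library sizes scaled by TMM (the trimmed mean of log ratios across loci), adjusted by Benjamini-Hochberg over the 466 loci with at least 10 counts. It compares these libraries, not conditions, and called 38.0% of all loci. Of the 5 members 4 were called, all higher in replicate 2, a direction in which 19.3% of all loci were called. No member was among the 18.7% called higher in replicate 1. Mir23a differed most, with a log2 ratio of replicate 1 to replicate 2 of -0.49 (95% counting interval -0.53 to -0.46, adjusted p = 2.23e-176, exact conditional binomial), 1.41-fold. Mir23b differed by -0.12 (-0.14 to -0.09, adjusted p = 6.58e-20, exact conditional binomial) and Mir27b by -0.18 (-0.26 to -0.10, adjusted p = 5.93e-05, exact conditional binomial). These differences were 1.08-fold and 1.13-fold.

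The small chromosome 8 members moved less clearly. Mir24-2 had a log2 ratio of -0.39 (-0.69 to -0.08) and an adjusted p of 0.0346 by the exact conditional binomial test. That call ended with total counts only, with no minimum count and with the deeper library thinned (adjusted p = 0.0847, 0.0776 and 0.148 by the same exact test). Mir27a was not called, at 0.07 (-0.25 to 0.39, adjusted p = 0.833, exact conditional binomial). No member differed by 1.5-fold or more, whereas 7.30% of all tested loci were called at that fold, a threshold added after seeing the data. Across the 205 loci with a mean of at least 100 CPM the SD of the log2 ratio was 0.31, which is larger than the differences of Mir23b and Mir27b and smaller than that of Mir23a.

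Loci that mark several cell types also differed between the libraries, and those of vessel cells were not the only ones to differ in the direction of Mir23a. The endothelial list, of which Mir126a alone has a row, stood at 16256 CPM in replicate 1 and 21170 in replicate 2 (log2 ratio -0.45). The 4 mural and mesenchymal loci summed to 5380 and 7066 CPM, and 3 of the 4 were called higher in replicate 2, led by Mir143 at -0.48. The 3 glial loci summed to 2488 and 2716 CPM with 1 called higher in replicate 2, Mir219a-2, and the 3 leukocyte loci with a row summed to 319 and 349 CPM with Mir223 called higher in replicate 2 at -0.54. The other leukocyte loci, Mir155 at 0.18 and Mir150 at 0.11, were not called. The 3 erythroid loci summed to 93.4 and 86.9 CPM, with Mir451a called higher in replicate 1 at 0.38, while Mir144 at -0.36 and Mir486 at -0.24 were not called. The 10 neural loci with a row summed to 30419 and 28426 CPM, with Mir137 called higher in replicate 1 at 0.47 and with Mir92b at -0.31 and Mir128-2 at -0.25 called higher in replicate 2. Of the 4 tested Hox cluster loci Mir10a alone was called, higher in replicate 2 at -0.36. Larger differences in the same direction occurred outside these lists, as for Mir449a at -1.40, Mir1298 at -1.03, Mir448 at -0.84 and Mir204 at -0.54, which were chosen after their values were seen. The part of these cell types in the difference of Mir23a was not tested, and in whole tissue fewer cells of a type cannot be told apart from less RNA per cell.

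**Figure D2:**
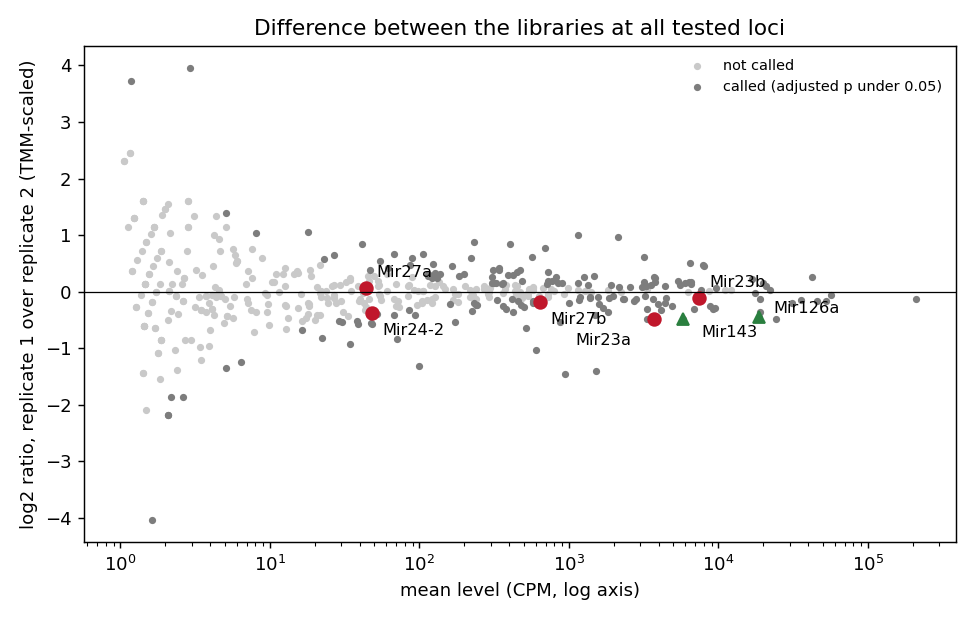
Log2 ratio of replicate 1 over replicate 2 after TMM scaling against mean CPM (log axis) for the 466 tested loci, with called loci in dark grey, members in red and the endothelial Mir126a and the mural Mir143 as green triangles. Mir23a lies at -0.49 beside Mir143 at -0.48 and Mir126a at -0.45, while Mir23b, Mir27b and Mir27a lie closer to 0. Mir98 at -0.49 and Mirlet7i at -0.48, which are in none of the cell type lists and are not marked, lie as near to Mir23a. The other mural and mesenchymal loci, also not marked, are Mir145a at -0.41, Mir214 at -0.23 and Mir199b at -0.17.

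Other duplicated microRNA clusters were read the same way for comparison, without a test. The pairs, and which locus of each is named first, were set by hand, so only the evenness of a split can be compared. The Mir29b and Mir30c copies, and Mir92a-1 with Mir25, belong to these clusters but were not read as pairs. Of the miR-30 pair, Mir30a held 31.9% and 33.2% of counts against Mir30e. Mir106b held 21.0% and 23.9% against Mir17, and Mir20a held 45.8% and 43.7% against Mir93, a pair on the proliferation-linked miR-17/92 and miR-106b/25 clusters. Of the miR-29 pair, Mir29c held 50.6% and 44.2% against Mir29a. The miR-181 locus pairs were the least even, with Mir181a-2 at 5.27% and 5.23% against Mir181a-1 and Mir181b-1 at 0.847% and 0.793% against Mir181b-2. These pairs leaned to opposite clusters, so that as whole clusters Mir181a-2 and Mir181b-2 held 33.9% and 19.6% of the summed counts. Among the pairs shown, the miR-27 pair was thus nearer in evenness to the miR-181a pair and the miR-23 pair nearer to the miR-30 pair.

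**Figure D3:**
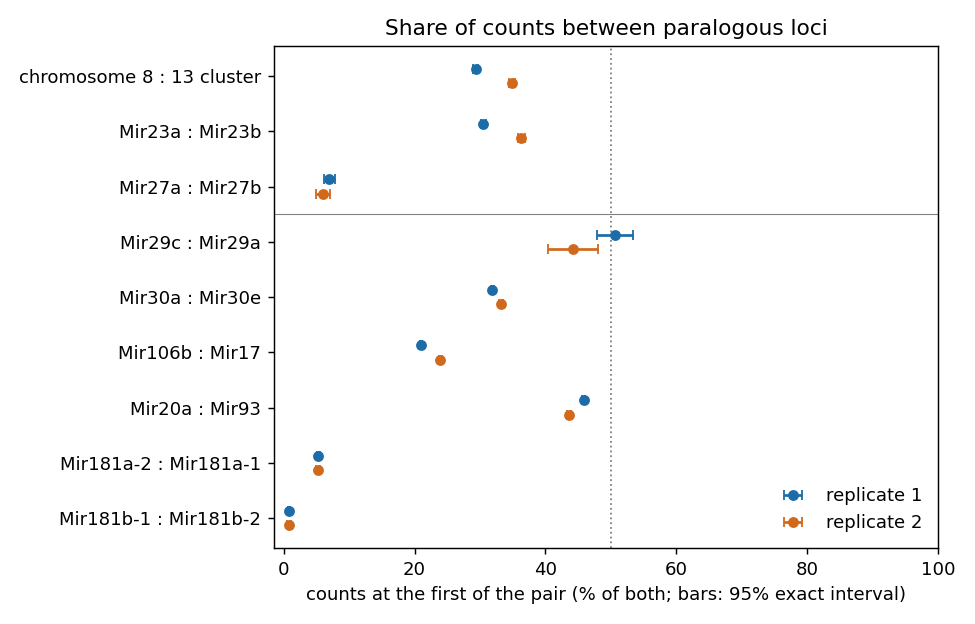
Percent of counts at the first locus of each paralogous pair in replicate 1 (blue) and replicate 2 (orange), with 95% exact intervals of counting error as bars and a dotted line at equal shares. The top rows are the clusters (29.4% and 34.9% on chromosome 8), the miR-23 pair (30.5% and 36.3%) and the miR-27 pair (7.00% and 5.95%), and the rows below the line are other duplicated clusters.

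Listed loci that share a whole mature strand with a numbered copy were spread over a wide range. The list was set by hand and does not hold every numbered copy. Mir181a-1, for example, is not in it and had a mean of 6842 CPM. Of the 24 loci listed, 23 have a row, and their means ran from 0.733 CPM to 3167 CPM with a median of 219 CPM. Mir24-2, at 47.9 CPM, was at place 14 of these 23 from the highest, with 9 below it.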

How the data were processed

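The deposited values are raw counts of reads per gene, 1 table for each of 2 libraries, on assembly mm10 with annotation M4, per the file headers. Neither the headers nor the labels name the aligner, the counter or the trimming. Column 1 of 3 equals the sum of the others in all 1973 gene rows, and the second was read as same-strand counts. Rows for unmapped (16.1% and 15.7% of reads), multimapping (34.4% and 37.7%) and unassigned reads (3.79% and 3.80%) were left out of library sizes and of the test. Symbols came from GENCODE M21 by ID without version (1894 of 1973 matched), and list names spelled otherwise there were matched through RefSeq synonyms.

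With 1 group edgeR can fit no contrast, so edgeR 4.0.16 gave TMM factors only. Loci were tested genome-wide by an exact conditional binomial test (scipy 1.17.1, adjusted p under 0.05). The test was run on simulated counts that held counting error only, so that check does not bear on variation between replicates. Shares have 95% exact Clopper-Pearson intervals. Named loci were the members, the 2 loci above and below each in level, loci with the same seed or on the opposite strand, and fixed lists. Members and lists were chosen with earlier results of these data known. The alternatives tried were size factors from DESeq2 1.42.0, total counts, count minimums of 1 and 50, thinning, unstranded counts, other denominators, a pseudocount of 0.5 counts, sums without miR-24, and each replicate left out.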

Additional observations from a re-analysis of the deposited data

Results flagged for a closer look

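The row that GENCODE M21 names Mir3074-1, which lies over Mir24-1, had 76 counts on its opposite strand in replicate 1 and 30 in replicate 2, above the limit of 3 counts that a count of 0 allows. These reads are in a column left out of the main CPM levels and of the main test. They entered only the alternative shares that took this row as Mir24-1, and the unstranded counts. They were 3.67% and 2.75% of the unstranded counts of the row, whereas 302 of the 317 rows with at least 100 unstranded counts had under 1% on the opposite strand. Which of the strands held Mir24-1 in the annotation used for counting was not tested.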

How the results depend on the processing

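Of 87 recomputed values, 75 were taken as unchanged. These kept their direction and their side of the threshold, stayed within the SD of the replicates, or were numbers of called members. The numbers of called members among the 75 include those that fell from 4 to 3. With 2 replicates, the value of either alone always lies within the SD of their mean. Values with a replicate left out are among the 75, could not have come out otherwise, and are no evidence of stability. Calls of members numbered 4 with DESeq2 size factors, a minimum of 50 counts and unstranded counts, 3 with total counts only, no minimum count and thinning, each time without Mir24-2, and 0 when a fold of at least 1.5 was required, an alternative chosen after seeing the data. With thinning of replicate 1 the log2 ratio of Mir27a turned from 0.07 to -0.0089, not called either way. Its range over all settings was -0.0089 to 0.13, and those of the others were -0.51 to -0.43 for Mir23a, -0.12 to -0.05 for Mir23b, -0.39 to -0.32 for Mir24-2 and -0.22 to -0.12 for Mir27b. With multimapping reads in the denominator, which makes it larger, all 5 members fell by more than their SD and the clusters stood at 2097 CPM on chromosome 8 and 4416 CPM on chromosome 13. The share of the chromosome 8 cluster was 31.1% and 32.1% with the same-strand and opposite-strand counts of the Mir3074-1 row added as Mir24-1, which was also chosen after seeing the data. No paired analysis was possible because the series holds 1 group. Depth limits Mir27a and Mir24-2, whose ratios rest on 123 to 234 counts per library.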
